A study of Mus musculus with 4 samples.

Results

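Cartilage is built by a small set of genes, and 10 of them were followed here in the periodontal ligament (PDL), the connective tissue that ties a tooth to its socket, of mice with and without Mkx. They comprise the transcription factors Sox9, Sox5 and Sox6, the proteoglycan gene Acan, the collagen genes Col2a1, Col9a1, Col9a2, Col11a1 and Col11a2, and Chad. These genes were taken by name, with earlier results of these data known, from the 22907 genes that a probe of the array could be matched to. Each is represented by its brightest probe. Each group was a single array of total RNA from PDL: Mkx-KO at 10 weeks, WT at 10 weeks, Mkx-KO at 4 weeks and WT at 4 weeks. Mkx-KO denotes mice in which Mkx is knocked out. The Mkx allele, the strain and sex of the mice, and how many animals gave each RNA are not given in the labels. A difference between any pair of arrays therefore has no replicate check. The question put to these genes was whether loss of Mkx turns ligament towards cartilage.

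Mkx (Mohawk) is a homeobox transcription factor of tendons and ligaments, tissues made mainly of parallel fibres of type I collagen. Cartilage is laid down instead under Sox9, which works together with the closely related Sox5 and Sox6 to switch on the genes of the cartilage matrix. In that matrix, thin fibrils of type II collagen, with type XI collagen inside them and type IX collagen on their surface, hold the large chondroitin sulphate proteoglycan aggrecan.

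Values are log2 levels, that is the log2 of a probe's processed spot intensity minus the 75th percentile of its array, so that 0 is the brightness that 1 probe in 4 exceeds and a difference of 1 is a doubling. Levels of single genes are compared between arrays for 1 probe and never between probes. A summed level of a list adds the levels of its genes on the linear scale, so the brightest probes weigh most in it. The technical error of a difference is derived from the error that the scanner software gives each spot, has a median of 0.20 over genes and leaves out all variation between animals. A gene counts as measured in a comparison when it is well above background on both arrays, and as 2-fold apart when the measured levels also differ by at least that much.

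The targeted gene was checked first. Mkx had a level of -1.26 in Mkx-KO against 0.84 in WT at 10 weeks, and of -0.57 in Mkx-KO against 1.08 in WT at 4 weeks. Its signal was thus lower on both Mkx-KO arrays, by 2.10 and 1.65 on the log2 scale (technical error 0.21 each), and still well above background there; its second probe gave -1.94 and -1.38. Whether its probe lies in a deleted part of the gene is not given in the sources used here.

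Between 61.8% and 66.6% of the spots were well above background on each array, and no spot was saturated. All 10 marker genes of ligament fibroblasts were well above background on all 4 arrays, among them Postn, which encodes the PDL matrix protein periostin, with levels of 8.50 in Mkx-KO against 8.45 in WT at 10 weeks and 8.62 in Mkx-KO against 8.57 in WT at 4 weeks. Markers of other tissues were present too, and the 4-week Mkx-KO array stood apart in them. The summed level of 10 olfactory neuron genes, in multiples of the array's 75th percentile, was 43.8 in Mkx-KO against 52.8 in WT at 10 weeks, but 1.08 in Mkx-KO against 44.5 in WT at 4 weeks, where 6 of the 10 fell short of the background criterion in Mkx-KO. Omp, which encodes the olfactory marker protein, differed by -8.13 at 4 weeks. Of 7 nasal gland genes, summing to 1511 and 1216 in Mkx-KO and WT at 10 weeks and to 1.8 and 591 at 4 weeks, Bpifb9b was not well above background on the 4-week Mkx-KO array. Because of this, each result that rests on the 4-week Mkx-KO array is given beside the comparison that does not use it, which is Mkx-KO against WT at 10 weeks for genotype and the WT pair for age.

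All but 1 of the members, 9 of 10, were well above background on all 4 arrays, and Col9a1 was so on 3, missing in Mkx-KO at 10 weeks. The plot of the levels on the 4 arrays shows the pattern that the rest of the text follows: for most of these genes the 10-week and the 4-week arrays separated further than the genotypes did.

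**Figure D1:**
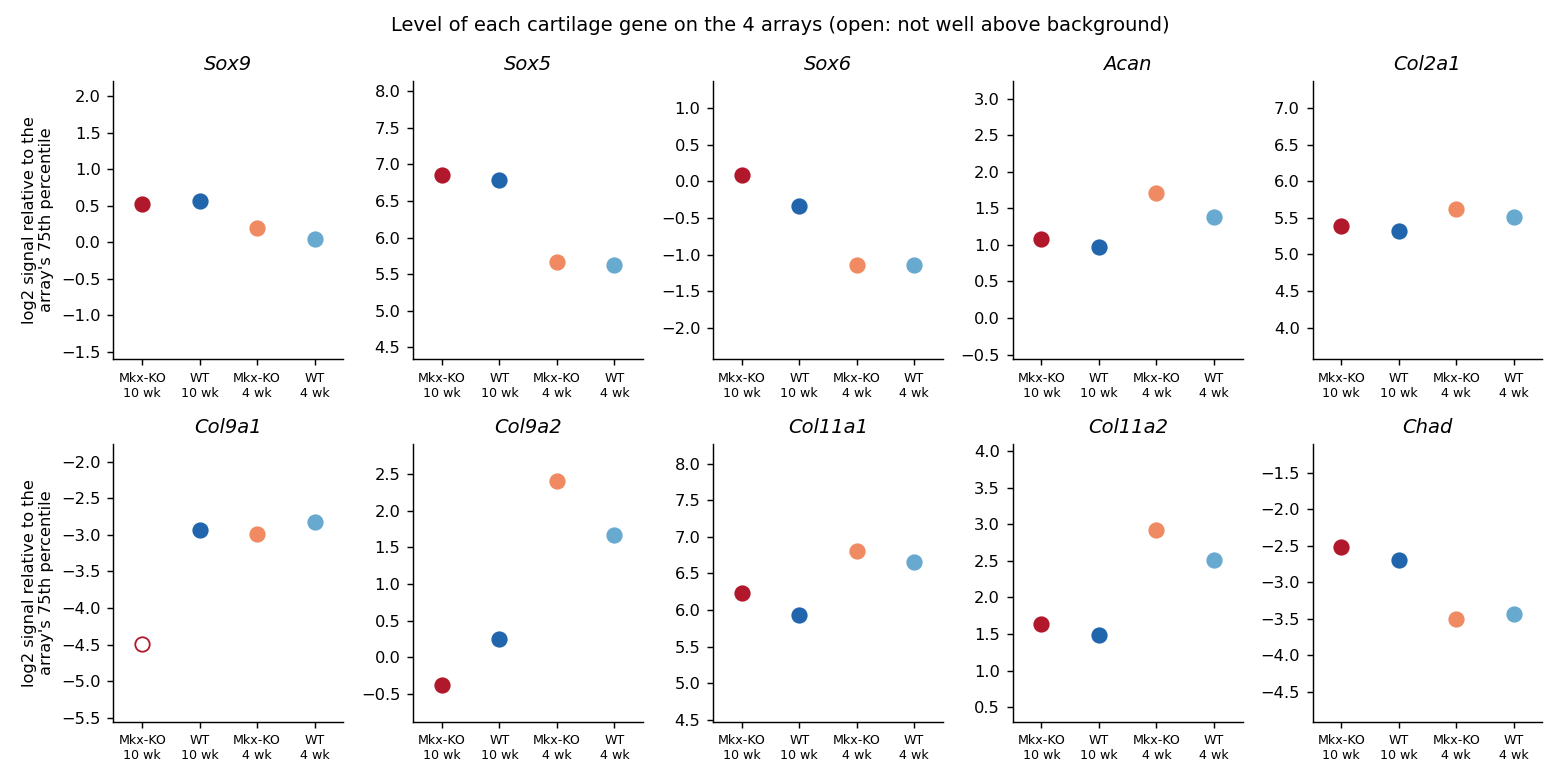
Log2 level of each of the 10 cartilage genes, relative to the array's 75th percentile (vertical axis, the same span in every panel), on the arrays of Mkx-KO and WT at 10 weeks and of Mkx-KO and WT at 4 weeks; each point is 1 array and there are no error bars. Sox5 lies at 6.86 and 6.79 at 10 weeks against 5.66 and 5.62 at 4 weeks, Col9a2 at -0.38 and 0.25 against 2.41 and 1.67, and the open point is Col9a1 in Mkx-KO at 10 weeks, which was not well above background.

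No member was 2-fold apart between the genotypes at either age. At 10 weeks the count was 0 of 9 measured members, where 2.41% of 16453 measured genes were at least 2-fold apart. At 4 weeks it was 0 of 10, where 3.78% of 15682 genes were. The members' median difference, Mkx-KO minus WT, was 0.11 at 10 weeks and 0.12 at 4 weeks, beside 0.01 and 0.06 over all measured genes. Fewer cells of a type and less RNA per cell cannot be told apart in such bulk RNA.

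The regulators come first. Sox9, which is required for cartilage to form, had levels of 0.53 in Mkx-KO against 0.56 in WT at 10 weeks, and of 0.19 in Mkx-KO against 0.05 in WT at 4 weeks. Its genotype differences of -0.03 and 0.14 were both smaller than their technical error of 0.20, and the sign at 10 weeks turned under another processing, with values from -0.13 to 0.04. A dimmer Sox9 probe, also above background on all 4 arrays, gave -0.22 ± 0.24 and 0.41 ± 0.28 (technical error).

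Sox5, a partner of Sox9 on cartilage gene enhancers, had levels of 6.86 in Mkx-KO against 6.79 in WT at 10 weeks and of 5.66 in Mkx-KO against 5.62 in WT at 4 weeks. The genotypes differed by 0.07 and 0.04, well inside the technical error. This reading comes from 1 probe: the other 2 probes of Sox5 were not well above background on any array, so the gene's probes disagree on whether it was detected.

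Sox6, the other partner of Sox9, had levels of 0.09 in Mkx-KO against -0.33 in WT at 10 weeks and of -1.14 in both genotypes at 4 weeks. It was the member with the largest positive genotype difference at 10 weeks, 0.42 ± 0.21 (technical error), and the difference at 4 weeks was 0.00 ± 0.21. A dimmer Sox6 probe gave 0.43 ± 0.33 at 10 weeks and was not well above background at 4 weeks. Another probe was not well above background on any array.

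Acan, the gene of aggrecan, had levels of 1.07 in Mkx-KO against 0.96 in WT at 10 weeks and of 1.72 in Mkx-KO against 1.39 in WT at 4 weeks. Both differences were positive, 0.11 ± 0.20 and 0.33 ± 0.20, and neither exceeded 2 technical errors. Col2a1, the gene of the chain that makes type II collagen, had levels of 5.39 in Mkx-KO against 5.32 in WT at 10 weeks and of 5.62 in Mkx-KO against 5.51 in WT at 4 weeks. Its differences of 0.07 and 0.11 lay inside the technical error at both ages, so that the defining fibrillar collagen of cartilage was read at nearly the same brightness in both genotypes.

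Col9a2, which encodes a chain of the type IX collagen that coats type II fibrils, had differences of opposite sign at the 2 ages. Its level was -0.38 in Mkx-KO against 0.25 in WT at 10 weeks, and 2.41 in Mkx-KO against 1.67 in WT at 4 weeks. It was thus lower in Mkx-KO at 10 weeks by 0.62 ± 0.21 on the log2 scale, 1.54-fold, and higher in Mkx-KO at 4 weeks by 0.74 ± 0.20, 1.68-fold (technical errors). By level the arrays ran from Mkx-KO at 10 weeks through WT at 10 weeks and WT at 4 weeks to Mkx-KO at 4 weeks, and every step between neighbours exceeded 2 technical errors. Over all alternative processings the differences stayed between -0.67 and -0.53 at 10 weeks and between 0.65 and 0.83 at 4 weeks. Only 1 probe of the array was matched to Col9a2.

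Col9a1, which encodes the partner chain in type IX collagen, had a level of -2.93 in WT at 10 weeks, and of -2.99 in Mkx-KO against -2.82 in WT at 4 weeks. In Mkx-KO at 10 weeks its probe read -4.49 and was not well above background, against a processed signal of 40.5 in WT at that age and 11.6 in Mkx-KO. Taken at that reading, the 10-week Mkx-KO level lay 2.94-fold under that of WT, with a technical error of 0.38 on the log2 scale. This is not a bound, since the dim reading itself exceeded the lowest signal that counted as well above background on its array. The value depended on the processing: with normexp and an offset of 50 the difference was -0.17, against -1.56 as measured. With the mean of the gene's probes it was -0.41. A second, dimmer probe was well above background only on the 4-week arrays, so it could not be read at 10 weeks. At 4 weeks the genotypes differed by -0.17 ± 0.25 with the brighter probe and by -0.07 ± 0.41 with the dimmer one.

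The type XI collagen chains, which lie within the fibril and limit its thickness, had small positive differences at both ages. Col11a1 had levels of 6.23 in Mkx-KO against 5.94 in WT at 10 weeks and of 6.81 in Mkx-KO against 6.65 in WT at 4 weeks. Its differences were 0.29 ± 0.20 and 0.15 ± 0.20, and its second probe gave 0.33 ± 0.20 and 0.39 ± 0.20. Col11a2 had levels of 1.63 in Mkx-KO against 1.48 in WT at 10 weeks and of 2.92 in Mkx-KO against 2.51 in WT at 4 weeks. It differed by 0.15 ± 0.20 at 10 weeks and by 0.41 ± 0.20 at 4 weeks, while the second probe gave 0.46 ± 0.25 and 0.19 ± 0.24, with the larger value at the other age.

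Chad, the gene of chondroadherin, a leucine-rich protein to which chondrocytes attach, had levels of -2.51 in Mkx-KO against -2.70 in WT at 10 weeks and of -3.50 in Mkx-KO against -3.44 in WT at 4 weeks. The differences of 0.19 ± 0.22 and -0.06 ± 0.27 were inside the technical error.

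**Figure D2:**
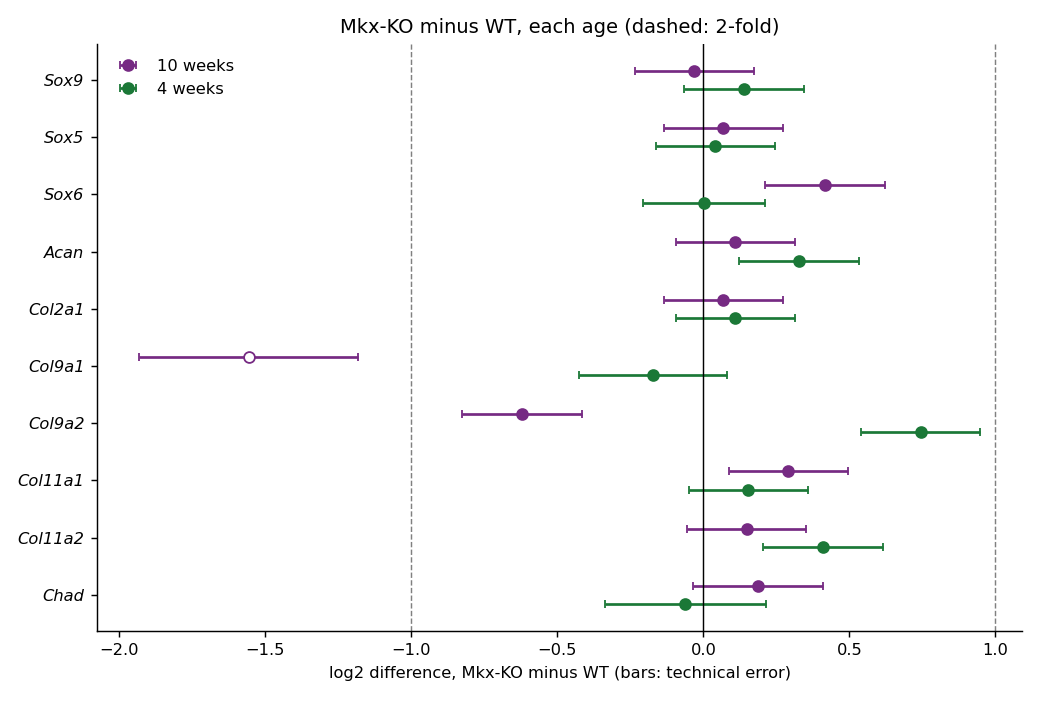
Log2 difference, Mkx-KO minus WT, of each cartilage gene (rows) at 10 weeks (purple, upper point) and at 4 weeks (green, lower point), with bars of 1 technical error and 2-fold marked by dashed lines. All points that were well above background on both arrays lie within 2-fold, from -0.62 to 0.74, and Col9a2 is on opposite sides of 0 at the 2 ages; the open point is Col9a1 at 10 weeks, where Mkx-KO was not well above background.

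Counted against the technical error, 2 of the 9 members differed by more than 2 errors at 10 weeks, Sox6 upwards and Col9a2 downwards, where 14.0% of all measured genes did. At 4 weeks 2 of 10 did, Col9a2 and Col11a2, both upwards, where 15.6% of all genes did. For Sox6 and Col11a2 the difference was only just past 2 errors and at its lowest was 0.36 and 0.30 under another processing. Positive differences numbered 7 of 9 members at 10 weeks and 8 of 10 at 4 weeks, beside 51.5% and 58.8% of all genes, and over the alternative processings that set a level for each gene they numbered 6 to 8 and 7 to 8. Of the 9 members measured on all arrays, 6 were positive at both ages, 0 were negative at both and 3 had opposite signs, where 29.1%, 19.0% and 51.9% of 15500 genes did so. Most of these signs belong to differences inside the technical error.

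**Figure D3:**
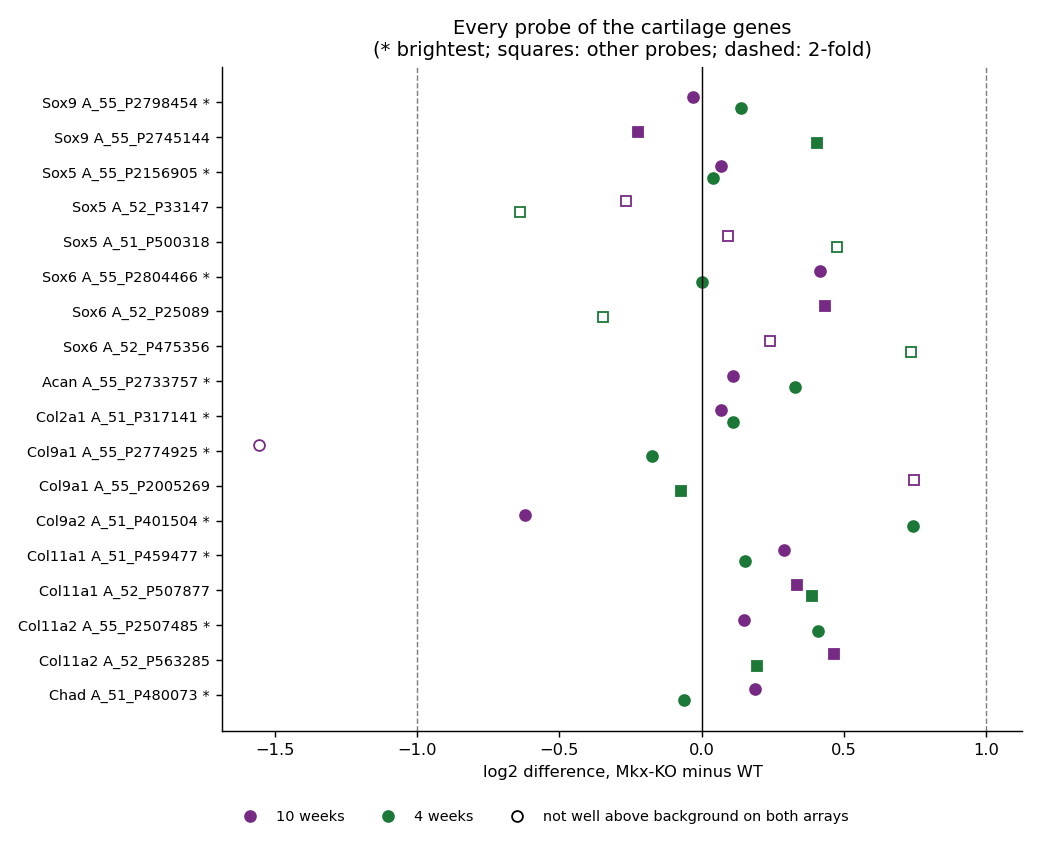
Log2 difference, Mkx-KO minus WT, of every probe matched to a cartilage gene (rows; an asterisk and circles mark the brightest probe of a gene, squares its other probes) at 10 weeks (purple) and at 4 weeks (green), with 2-fold dashed and no error bars; open symbols were not well above background on both arrays. All filled symbols lie within 2-fold, both Sox5 squares are open at each age, and both probes of Col11a1 are positive at both ages, from 0.15 to 0.39.

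The arrays of both ages were then fitted together with limma, with genotype and age as terms, over 16791 genes; the fit has 1 residual degree of freedom, and it assumes that a genotype difference is the same at both ages. For genotype, limma called 0.0% of the genes at an adjusted p under 0.05 and 2.71% of them, 455 genes, had an unadjusted p under 0.05; of the 10 members, 0 were called and 0 had such an unadjusted p. The smallest adjusted p of any gene was 0.9996, which was also that of Mkx with a difference of -1.88 (SE 0.18, limma), lower in 2 of 2 Mkx-KO arrays. The fit could therefore not call even the targeted gene, and its lack of calls among the cartilage genes does not show that they were alike. The members' estimates ran from -0.87 (SE 0.43) for Col9a1 to 0.28 (SE 0.15) for Col11a2 (limma). That of Col9a1 includes the 10-week Mkx-KO reading that was not well above background. It was -0.12 with normexp and -0.26 with the mean of probes.

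Other tissues' markers moved with genotype, in both directions by age. At 10 weeks the summed level of 8 oral epithelium genes was 448 in Mkx-KO against 823 in WT. All 8 were lower by more than 2 technical errors, 2 of them at least 2-fold, with Krt13 at -1.04. The sums of 8 erythroid precursor genes were 587 and 373, with all 8 higher by more than 2 technical errors and 2 of 8 at least 2-fold. Those of 8 leukocyte genes were 62.4 and 36.4, with 6 higher and 1 lower by more than 2 technical errors. By at least 2-fold, 1 leukocyte gene was higher and 1 lower. The sums of 8 bone and cementum genes were 486 and 363, with Ibsp 1.58 higher. Foxj1 of ciliated epithelium and Sox10 of Schwann cells differed by -0.05 and -0.31, and 0 of the 8 genes in either list were 2-fold apart. Foxj1 was the 1 negative gene of its list, with 7 of 8 positive and a median of 0.22, and of the Schwann cell genes 5 of 8 were positive, with a median of 0.05. By at least 2-fold, 3 of 8 neuron genes were higher and 0 lower, and of 7 nasal gland genes 1 was higher and 3 were lower. Of 7 measured enamel and dentine genes 1 was higher and 1 lower by as much. Of the muscle and olfactory genes, 0 of 8 and 0 of 10 were 2-fold apart. Even so, 7 of 8 muscle genes were positive, with a median of 0.51, and 5 were higher by more than 2 technical errors. Of the olfactory genes 8 of 10 were negative, with a median of -0.23, and 0 were past 2 technical errors.

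At 4 weeks more lists differed. All 8 skeletal muscle genes were at least 2-fold lower in Mkx-KO, summing to 43.5 against 108 in WT, with Acta1 at -1.56. All 6 measured nasal gland genes were lower too, as were 3 of 4 measured olfactory genes and 4 of 8 neuron genes. Bone and cementum genes summed to 445 in Mkx-KO against 674 in WT (2 of 8 lower, Ibsp at -1.13), oral epithelium genes to 575 against 321 (Krt13 at 0.97), and enamel and dentine genes to 30.3 against 56.8. In that last list Amelx, the amelogenin gene, was at -6.66 and Enam was not well above background in Mkx-KO, while the other 6 of 7 measured genes were positive, 1 of them at least 2-fold, and the median was 0.19. Foxj1 was at -1.68 and Sox10 at -0.54. Of 8 leukocyte genes 2 were higher and 2 lower, and 0 of 8 Schwann cell and 0 of 8 erythroid precursor genes were 2-fold apart. Even so, all 8 erythroid precursor genes were lower in Mkx-KO, with a median of -0.38, 1 of them by more than 2 technical errors. Their sums were 676 in Mkx-KO against 881 in WT, the reverse of the order at 10 weeks. Of the Schwann cell genes 7 of 8 were negative, with a median of -0.13, and 3 were lower by more than 2 technical errors. Beside these, the ligament genes Aspn, Scx and Tnmd had values of 0.17, 0.71 and -0.28 for the 10-week pair, against -0.35, 0.30 and -0.19 for the 4-week pair, and of the 10 ligament genes Mkx alone was 2-fold apart at either age. The part of these tissues in the cartilage gene values was not tested.

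Other cartilage genes were read from 3 wider lists. Of 24 further cartilage matrix genes, 16 were measured on both arrays at 10 weeks, and 3 were at least 2-fold higher and 0 lower in Mkx-KO. These were Prg4, the gene of the lubricating proteoglycan of joint surfaces and tendon, Cytl1, which encodes a small secreted protein of chondrocytes, and Cilp, a matrix protein of cartilage's intermediate layer. Prg4 had levels of -0.75 in Mkx-KO against -2.11 in WT, Cytl1 of -1.35 against -2.40, and Cilp of -2.52 against -3.53. The differences were 1.35 ± 0.21, 1.05 ± 0.21 and 1.01 ± 0.26 (technical errors), while the median of the list was -0.14. Cilp was only just past 2-fold, at 2.02-fold, and Cytl1 was at 2.07-fold. The 2-fold calls of the wider lists were not repeated under the alternative processings.

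At 4 weeks 14 genes of the matrix list were measured, of which 0 were 2-fold higher and 2 were lower in Mkx-KO. Scrg1, a gene that cartilage cells switch on as they form, had a level of -2.91 in Mkx-KO against -1.19 in WT, and Cytl1 of -4.23 against -3.10, differences of -1.72 ± 0.23 and -1.13 ± 0.33. Prg4 was at -0.46 ± 0.27 and Cilp was dimmer than the background criterion in Mkx-KO, so none of the 3 genes that were higher at 10 weeks was higher at 4 weeks. The median of the list was -0.07. Hapln1, whose link protein ties aggrecan to hyaluronan, differed by -0.16 at 10 weeks and 0.32 at 4 weeks. Comp, a cartilage and tendon matrix protein that binds collagen, differed by -0.21 and -0.62.

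Several genes that mark mature cartilage were at or near the detection limit. Matn1 and Matn3, which encode the cartilage matrilins, were not well above background on any array, nor were 3 others of the matrix list. With only 1 array of a pair above background, a bound sets it against the lowest level counted as above background on the other. Col9a3, the remaining chain of type IX collagen, was above background only in Mkx-KO at 4 weeks, where it was at least 2.01-fold higher than in WT. Col10a1, the collagen of hypertrophic cartilage, was above background in Mkx-KO but not WT at 10 weeks, at least 2.20-fold higher, and in WT but not Mkx-KO at 4 weeks, at least 1.65-fold lower in Mkx-KO. Cnmd, which encodes the cartilage protein chondromodulin, showed the opposite order, at least 1.28-fold lower in Mkx-KO at 10 weeks and at least 1.11-fold higher at 4 weeks.

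Among 23 further regulators of chondrocytes, 0 of 19 measured at 10 weeks and 0 of 18 at 4 weeks were 2-fold apart, and the medians were -0.01 and 0.02. Of those measured at both ages, the 3 with the largest mean size were Erg, an ETS-family transcription factor, at 0.49 and -0.39, Gdf5, a growth factor of the BMP family that acts in forming joints, at 0.14 and -0.51, and Runx2, which drives bone formation and chondrocyte hypertrophy, at -0.26 and -0.35. Bmpr1b, a BMP receptor gene named here after its values were seen, was at -0.79 ± 0.30 at 10 weeks, the largest difference of the list there. It did not reach the background criterion in Mkx-KO at 4 weeks, a bound of at least 2.05-fold under WT. That bound lies inside the technical error of the 4-week difference, 1.46 on the log2 scale.

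The 13 genes that make and sulphate chondroitin, the sugar chain of aggrecan, gave 0 of 12 measured genes 2-fold apart at each age, with medians of 0.10 at both. Chst3, which sulphates chondroitin, had levels of -0.31 in Mkx-KO against -0.82 in WT at 10 weeks and of 0.00 in Mkx-KO against -0.56 in WT at 4 weeks, differences of 0.51 and 0.56 (technical error 0.21 each). Chpf and Chsy1, which extend the chain, had differences of 0.11 and 0.19 at 10 weeks, then 0.50 and 0.32 at 4 weeks.

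**Figure D4:**
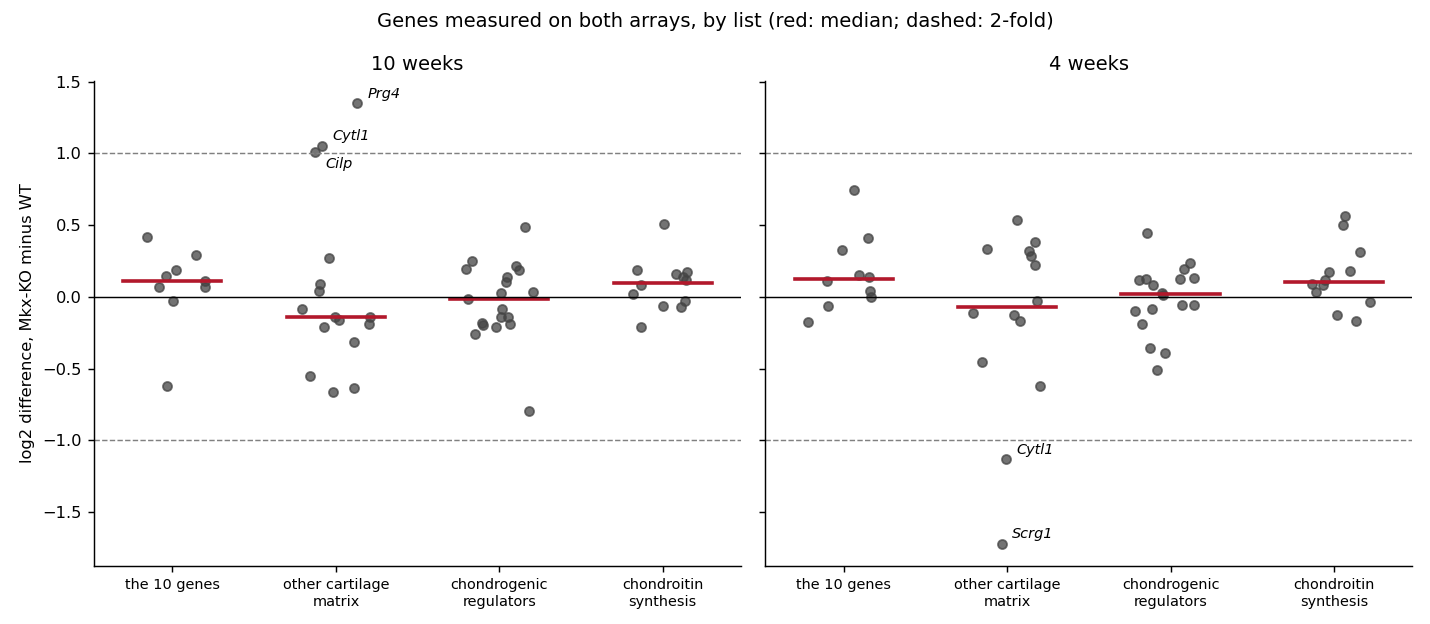
Log2 difference, Mkx-KO minus WT, at 10 weeks (left) and 4 weeks (right) of the 10 cartilage genes and of 3 wider lists (horizontal axis); each point is a gene measured on both arrays, spread sideways to keep points apart, the red lines are medians and 2-fold is dashed. Named are the genes at least 2-fold apart, Prg4, Cytl1 and Cilp above the line at 10 weeks and Cytl1 and Scrg1 below it at 4 weeks, while the medians of the lists lie between -0.14 and 0.12.

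More of these genes were 2-fold apart by age. In Mkx-KO, 4 of 9 measured members were at least 2-fold apart between 10 and 4 weeks, Sox5 and Sox6 higher and Col9a2 and Col11a2 lower at 10 weeks, where 10.1% of 15665 genes were. In WT, 3 of 10 were, Sox5 higher and Col9a2 and Col11a2 lower, where 8.84% of 16098 genes were. More than 2 technical errors separated 7 of 9 members in Mkx-KO and 8 of 10 in WT, beside 41.2% and 34.8% of all genes. The 9 members measured throughout had the same sign in both genotypes, 4 higher and 5 lower at 10 weeks, where 26.8% and 49.6% of all genes were higher or lower in both; the 5 included Col2a1, whose sign turned in both genotypes with quantile normalization and with the deposited series table.

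These age differences depend on the scaling of the arrays. The median of all genes was -0.15 in Mkx-KO and -0.10 in WT, and became 0.14 and 0.26 when the deposited series table, in which each array carries its own factor, was used instead. Members are therefore best read against that median.

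Among the SOX genes, Sox5 was 2-fold higher at 10 weeks in both genotypes and Sox6 in Mkx-KO. Sox5, with the levels given above, was higher by 1.20 in Mkx-KO and by 1.17 in WT, 2.29-fold and 2.25-fold, with its 1 bright probe. Sox6 was higher by 1.22 in Mkx-KO and by 0.81 in WT, and its dimmer probes could not be read at 4 weeks. The calls rest on the brightest probes: with the mean of a gene's probes Sox5 was at 0.42 in both genotypes and Sox6 at 0.97 in Mkx-KO, where normexp gave 0.96. Sox9 differed by 0.34 and 0.51 (technical error 0.20 each), under 2-fold in both genotypes and past 2 technical errors only in WT.

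Of the matrix genes, Col9a2 and Col11a2 were 2-fold lower at 10 weeks in both genotypes. Col9a2 was lower by 2.79 in Mkx-KO and by 1.42 in WT on the log2 scale, 6.90-fold and 2.68-fold, a change larger than that of 99.2% and 96.0% of measured genes. Col11a2 was lower by 1.28 and 1.02, but its second probe, also above background on all arrays, gave -0.34 in Mkx-KO and -0.61 in WT, under 2-fold in both. Its WT difference was just past 2-fold and fell short of it under 5 of 6 alternatives: -0.92 with normexp, -0.91 with quantile normalization, -0.67 with the series table, -0.82 with the mean of probes and -0.92 with local spatial correction. Col11a1 differed by -0.58 and -0.72 with the brightest probe and by -0.38 and -0.33 with the other one.

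Acan was at -0.64 in Mkx-KO and -0.42 in WT, below the all-gene medians of -0.15 and -0.10. In size these were larger than 76.5% and 64.4% of measured genes. Col2a1 was at -0.23 and -0.19, near the all-gene medians. Col9a1 read 2.82-fold lower at 10 weeks in Mkx-KO, with the dim 10-week probe at its own reading, where normexp gave a log2 difference of -0.31. In WT it was at -0.11 ± 0.25. Chad was positive in both, at 0.98 ± 0.25 in Mkx-KO and 0.74 ± 0.25 in WT, both under 2-fold. With the series table these became 1.27 and 1.09, both over 2-fold, and with normexp 0.38 and 0.13; local spatial correction gave 1.03 in Mkx-KO.

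**Figure D5:**
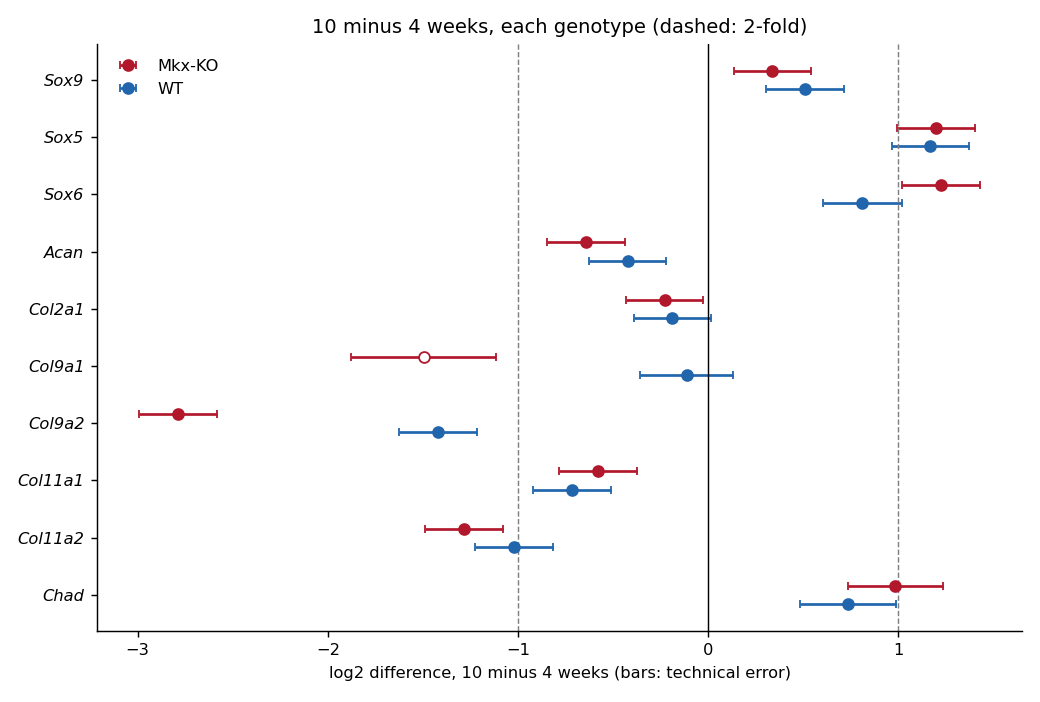
Log2 difference, 10 minus 4 weeks, of each cartilage gene (rows) in Mkx-KO (red, upper point) and in WT (blue, lower point), with bars of 1 technical error and 2-fold dashed. Sox5 lies right of the 2-fold line and Col9a2 and Col11a2 left of it in both genotypes, Col9a2 at -2.79 and -1.42; the open point is Col9a1 in Mkx-KO, not well above background at 10 weeks, and Col2a1, at -0.23 and -0.19, changed sign under 2 other scalings.

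In the limma fit, age gave 0.0% of genes called at an adjusted p under 0.05 and 24.3%, 4072 genes, at an unadjusted p under 0.05; 0 of the 10 members were called and 7 had such an unadjusted p. Sox5 had an estimate of 1.18 (SE 0.13, limma adjusted p = 0.176), higher in 2 of 2 genotypes. Col11a2 had -1.15 (SE 0.15, limma adjusted p = 0.176) and Col9a2 -2.10 (SE 0.43, limma adjusted p = 0.177), both lower in 2 of 2 genotypes. None of these passed the threshold.

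In Mkx-KO the age comparison also carries the 4-week array that stood apart: all 8 skeletal muscle genes were at least 2-fold higher at 10 weeks, with a median of 2.16, as were all 6 measured nasal gland genes. In WT 2 of 8 muscle genes were, with a median of 0.27, and 6 of 7 nasal gland genes. Most enamel and dentine genes were lower at 10 weeks in both. By at least 2-fold, 5 of 7 were lower in Mkx-KO, with a median of -3.01, and 6 of 7 in WT, with a median of -1.63. In each genotype 1 of 7 was at least 2-fold higher, at 4.71 in Mkx-KO and 1.52 in WT. Of the oral epithelium genes 6 of 8 were at least 2-fold higher at 10 weeks in WT. Bone and cementum genes, with 1 of 8 at least 2-fold higher in Mkx-KO, had 3 of 8 at least 2-fold lower in WT, where Ibsp was at -2.26. Neuron genes had 3 of 8 higher and 1 lower in Mkx-KO, and 4 of 8 lower in WT. Their part in the age differences of the cartilage genes was not tested. In the WT pair, which does not use that array, Col9a2 and Sox5 were 2-fold apart in the same direction as in Mkx-KO, as was Col11a2 by the narrow margin given above.

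Wider cartilage genes varied with age as well. Of the matrix list 3 of 15 measured genes were at least 2-fold higher and 2 lower at 10 weeks in Mkx-KO, and 1 of 15 was higher and 0 lower in WT. Prg4 was higher in both, by 2.83 and 1.02. Among the regulators Gdf5 was at 2.03 and 1.38, and of the chondroitin genes 0 of 12 were 2-fold apart in either genotype, with medians of -0.17 in both.

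The sequences before the starts of the 3 genes that were 2-fold apart by age in the same direction in both genotypes, Col11a2 narrowly in WT, are shown because 2 of them were lower and 1 was higher at 10 weeks. Each runs 5′ to 3′ on the gene's strand from 250 bases before to 50 bases after the RefSeq start on GRCm38.p6. They are Col9a2 at chr4:121039316-121039615 on the plus strand, Col11a2 at chr17:34038888-34039187 on the plus strand and Sox5 at chr6:143947057-143947356 on the minus strand. Capitals mark matches on either strand to the GC box GGGCGG, the TATA box TATAAA or the SOX motif AACAAT.
Col9a2: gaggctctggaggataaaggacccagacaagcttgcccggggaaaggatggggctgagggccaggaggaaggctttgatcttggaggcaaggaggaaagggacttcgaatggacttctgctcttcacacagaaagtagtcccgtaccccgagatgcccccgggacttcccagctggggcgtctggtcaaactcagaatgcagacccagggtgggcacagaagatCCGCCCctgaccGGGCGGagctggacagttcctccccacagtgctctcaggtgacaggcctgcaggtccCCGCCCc
Col11a2: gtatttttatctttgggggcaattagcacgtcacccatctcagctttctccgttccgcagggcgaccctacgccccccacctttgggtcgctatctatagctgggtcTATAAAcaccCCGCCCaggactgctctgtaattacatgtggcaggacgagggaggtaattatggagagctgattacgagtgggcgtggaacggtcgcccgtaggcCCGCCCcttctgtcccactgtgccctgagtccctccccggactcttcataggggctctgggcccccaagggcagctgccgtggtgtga
Sox5: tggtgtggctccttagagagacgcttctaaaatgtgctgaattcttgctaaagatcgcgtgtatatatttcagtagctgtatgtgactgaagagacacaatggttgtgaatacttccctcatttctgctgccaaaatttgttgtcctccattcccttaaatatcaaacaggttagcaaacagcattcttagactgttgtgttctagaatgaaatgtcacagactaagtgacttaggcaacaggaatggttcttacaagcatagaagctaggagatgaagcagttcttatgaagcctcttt

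Col9a2 held 3 matches to the GC box in this window, 1 of them 43 bases after the start, and none to the TATA box. Col11a2 held 2 matches to the GC box and 1 to the TATA box, the latter 143 bases before the start. Sox5 held none of the 3 motifs. The SOX motif was in neither of the collagen windows. Of the 10 members 8 had promoters in the RefSeq table, 14 in all, and Col2a1 and Sox9 were not listed. Several of the 14 belong to Sox6, so the shares below count that gene more than once. The SOX motif was in 1 of these 14, a promoter of Sox6, beside 10.7% of 32851 promoters. The GC box was in 6 of 14, beside 35.7%, and the TATA box in 4 of 14, beside 13.6%. The TATA box matches of Sox6 lay 225 bases before and 31 bases after the starts of their promoters. That of Col11a2 lay 143 bases before its start and that of Chad 28 bases before. All of these are matches of letters, and the array holds no measure of binding.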

How the data were processed

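RNA from 4 PDL samples, 1 for each of Mkx-KO and WT at 10 and 4 weeks, was hybridised to 1-colour Agilent arrays; per the labels' protocols, 0.1 ug of total RNA was amplified and labelled with Cy3. Per the file headers, the deposited values are spot intensity on a linear scale, and what is analysed is the processed signal, from which background and spatial trend had been removed by the authors' scanner software, Agilent Feature Extraction 11.5.1.1. The deposited series table also holds intensity, which equals the processed signal times a factor for each array (2.08 and 1.81 for Mkx-KO and WT at 10 weeks, 1.54 and 1.64 at 4 weeks, within 1% for all values); how the factors were chosen is not given in the sources used here.

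Outlier spots (60 to 77 per array) and control spots were left out, spots of a probe averaged, and log2 values centred on the 75th percentile of each array. Of 56605 probes, 32989 matched a RefSeq accession, giving 22907 genes; the brightest probe stood for a gene. With 1 array per group, comparisons are log2 differences with the scanner's technical error and carry no p-value. The number of arrays limits the precision. limma 3.58.1 (R 4.3.3) fitted genotype plus age to genes that passed the background criterion on 2 or more arrays. Its errors and p-values reflect only how far the genotype difference varied between the 2 ages, pooled over genes, and no spread between animals. A run on data simulated from the same model checked that planted differences were recovered in size. It is no evidence about calls in the real data.

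The members and the 3 wider and 12 marker lists were chosen with earlier results of these data known. Genes named were Mkx, the 10 members, wider-list genes 2-fold apart by genotype (or the 3 with the largest mean size), 8 further cartilage genes and 12 tissue markers given by name. Alternatives were normexp with an offset of 50 on the median spot and local background signals (the mean spot signal was not used here), quantile normalization, median centring, the series table, the mean of a gene's probes, local spatial correction over windows of 17 rows and 11 columns, a 1.5-fold threshold and other background filters, and for limma a trended prior and the other factor left out.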

Additional observations from a re-analysis of the deposited data

Results flagged for a closer look

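The genotype difference of Col9a2 changed direction with age, by -1.37 (the difference at 10 weeks minus that at 4 weeks): its log2 level was -0.38 in Mkx-KO against 0.25 in WT at 10 weeks, and 2.41 in Mkx-KO against 1.67 in WT at 4 weeks. The genotype difference of Cytl1 did so in the other sense, by 2.18, with levels of -1.35 in Mkx-KO against -2.40 in WT at 10 weeks and of -4.23 in Mkx-KO against -3.10 in WT at 4 weeks. Col9a2 and Cytl1 drew attention because the arrays of the 2 ages moved in opposite directions, each by more than 2 technical errors. Both rest in part on the 4-week Mkx-KO array, which stood apart in markers of other tissues. There Cytl1 was near -4.68, the lowest level that counted as well above background on that array. Cytl1 was not read under the alternative processings. With 1 array per group the difference between the ages was not tested. Of all 15500 genes measured on the 4 arrays 587, or 3.79%, met this criterion, beside 2 of 53, or 3.77%, among the cartilage genes and the wider lists.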

How the results depend on the processing

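The count of members at least 2-fold apart between genotypes stayed at 0 at both ages under normexp, quantile normalization, median centring, the series table, the mean of probes and local spatial correction. It became 1 at 10 weeks and 1 at 4 weeks with a 1.5-fold threshold, and 1 at 10 weeks with no background filter, which admits Col9a1. By age, 4 members in Mkx-KO became 1 and 3 in WT became 1 with the mean of a gene's probes, where dim probes enter the mean, and the 3 in WT became 6 at 1.5-fold. The WT count was 2 with normexp, quantile normalization and local spatial correction, and 4 with the series table. The limma genotype fit called 0 genes under all alternatives tried; the age fit, 0 genes in the main setting, called 31 with normexp and 5 with genotype left out, and 0 members in each; the cause was not tested. Of 44 single-gene differences (10 members and Mkx, 4 comparisons), 21 moved by more than their technical error with the series table, 10 with normexp, 8 with quantile normalization, 7 with the mean of probes and 0 with median centring or local spatial correction. Signal over background limits Col9a1, Chad, the dimmer probes and, on the 4-week Mkx-KO array, Cytl1. The 2-fold calls of the wider lists were not repeated under the alternatives. No paired analysis was possible because each group holds 1 array and the groups share only that number. No array could be left out, since that leaves its comparison without a value.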
